A study of Mus musculus with 5 samples.

Results

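Cells read RNA in their cytosol through a small set of proteins. MDA5 (gene Ifih1) and RIG-I (gene Ddx58, also named Rigi) are helicases that bind viral double-stranded RNA and then join the mitochondrial adaptor MAVS (gene Mavs), whose signal leads to type I interferon. LGP2 (gene Dhx58) is a related helicase that lacks the signalling domains and tunes MDA5 and RIG-I. PKR (gene Eif2ak2) is a kinase that, once bound to double-stranded RNA, phosphorylates the translation factor eIF2 alpha. ZBP1 (gene Zbp1) binds nucleic acids in the left-handed Z form and can engage the kinase RIPK3 and cell death. Most of these sensors are themselves known as interferon-inducible genes, while MAVS is known as a broadly expressed component.

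The 6 genes were taken as a fixed list, and every array probe of them was found by its gene name or RefSeq transcript. They were 6 of the 20121 genes with a value on every array, measured by 9 of 55681 probes. Ifih1, Ddx58 and Zbp1 had 2 probes each, and Dhx58, Eif2ak2 and Mavs had 1 each. The 2 Zbp1 probes were designed on different transcripts. For a gene with 2 probes, the brighter one stands for the gene unless the other is named.

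The study profiled peritoneal lavage cells from the female BALB/c strain, harvested 2 h after injection into the peritoneum, with 1 Agilent single-colour array for each of 5 injections. These were phosphate-buffered saline (PBS), 50 μg of a polysaccharide from roots of the kiwifruit relative Actinidia eriantha (AEPS), 25 μg of the antigen ovalbumin (OVA), 25 μg of OVA with 50 μg of AEPS (OVA+AEPS), and 25 μg of OVA with 200 μg of the aluminium adjuvant alum (OVA+Alum). The labels do not give the age of the mice or whether RNA of several mice was pooled. With 1 array per injection no difference could be tested: "higher" and "lower" below describe these 5 arrays at a threshold of 2-fold, and the standard error (SE) beside a difference is technical, from the scanner's error model, and leaves out the spread between mice.

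A level below is the log2 of the processed signal minus the array's 75th percentile, and a difference is a difference of such levels. The 5 arrays shared 1 slide. Its row 1 held only the PBS array, and its column 4 held those of PBS and OVA+Alum. Between 56.7% and 60.0% of probes were well above background on each array. The lavage held markers of several cell types. The summed scaled signal of 15 measured neutrophil markers, all well above background on every array, was 1345 with PBS, 2592 with AEPS, 2148 with OVA, 2338 with OVA+AEPS and 2420 with OVA+Alum, and that of 12 large peritoneal macrophage markers was 2648, 2391, 2321, 2540 and 1674 in the same order. S100a8 and S100a9 carry most of the neutrophil sum, and over the 15 markers the median difference from PBS was 1.39 with AEPS and 2.22 with OVA+Alum. Saa3 carries most of the macrophage sum. Over the 12 macrophage markers the median difference from PBS was −0.49 with AEPS, with 2 lower, and −1.25 with OVA+Alum, with 8 lower. None of the 12 was higher in either. Mesothelial markers were higher with OVA+Alum than with PBS or OVA for 6 of 6 genes (medians 1.83 and 1.52). Of 7 red cell and platelet markers, 4 were higher for AEPS against OVA (median 1.88). Those 4 were red cell genes, and the platelet genes among the 7 stood between −0.04 and 0.17. Against PBS, 4 of 8 markers of this list were lower with OVA and 3 of 8 with OVA+AEPS, and none was higher in either. Of 8 mast cell markers, 4 were higher than with PBS on each of the AEPS, OVA and OVA+AEPS arrays, and 3 were at least 2-fold lower on both column 4 arrays than on the other 3. In such a mixture, fewer cells of a type and less RNA per cell cannot be told apart. The part of cell composition in the differences below was not tested.

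Promoter sequence was available from RefSeq (GRCm38.p6) for 4 of the 6 genes, Ifih1, Ddx58, Eif2ak2 and Mavs, as 250 bases before and 50 after the start of the gene. These windows are shown because Ifih1, Ddx58 and Eif2ak2 were higher on the AEPS arrays and Mavs was not. They were searched on both strands for GAAA repeated after any 2 bases, the core of interferon-stimulated response elements, and for GAAA repeated after any 1 base. The first pattern was present in 3.44% of 32851 such windows in the table, the second in 3.17% and either in 6.27%. In the sequences that follow, capitals mark the match, all are written 5′ to 3′ on the strand of the gene, and positions count from 1 at the first base of the gene, or from −1 before it.
Ddx58, chr4:40239826-40240075, minus strand: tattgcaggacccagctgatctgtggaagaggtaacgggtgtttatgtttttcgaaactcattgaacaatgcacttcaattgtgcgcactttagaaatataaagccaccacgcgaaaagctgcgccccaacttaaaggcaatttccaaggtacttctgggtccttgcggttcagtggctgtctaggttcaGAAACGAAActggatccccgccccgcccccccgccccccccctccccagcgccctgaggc
Ifih1, chr2:62646206-62646235, minus strand: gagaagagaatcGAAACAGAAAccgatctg
Eif2ak2, chr17:78882535-78882564, minus strand: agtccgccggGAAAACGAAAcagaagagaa
Mavs, chr2:131233813-131234062, plus strand: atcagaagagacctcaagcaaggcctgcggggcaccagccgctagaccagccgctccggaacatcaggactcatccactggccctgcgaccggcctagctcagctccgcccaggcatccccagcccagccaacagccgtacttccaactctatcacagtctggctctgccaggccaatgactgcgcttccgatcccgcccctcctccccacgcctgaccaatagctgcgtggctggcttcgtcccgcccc
The Ddx58 match lay at −60 to −52, before the start. A further Ddx58 match to the first pattern, read on the opposite strand, lay just after the start at 3 to 12 and is not printed. The Ifih1 match lay at 33 to 42 and the Eif2ak2 match at 19 to 28, both after the start, and the 250 bases before those 2 genes held none. No match overlapped another. Neither pattern occurred in the Mavs window. A match describes the letters in a window and does not show that a factor was bound there.

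Ifih1 was the member with the widest range over the 5 arrays, 4.09 on the log2 scale, against a median range of 0.73 over all genes. Its processed signal was 466 with PBS, 2415 with OVA+Alum, 4970 with OVA, 9418 with OVA+AEPS and 9763 with AEPS, which gave log2 levels of 0.47, 2.52, 3.51, 4.57 and 4.56. The arrays with AEPS were the highest and differed from each other by less than their technical error, and OVA, OVA+Alum and PBS followed in 3 steps that each exceeded it. Ifih1 was 17.0-fold higher with AEPS than with PBS, a difference of 4.09 ± 0.20, and 17.1-fold higher with OVA+AEPS than with PBS. It was also above PBS without the polysaccharide, 8.19-fold with OVA (3.03 ± 0.20) and 4.14-fold with OVA+Alum (2.05 ± 0.20).

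The other Ifih1 probe was dim, with signals of 9.03 with PBS, where it was not well above background, 29.8 with OVA+Alum, 73.3 with OVA, 144 with OVA+AEPS and 159 with AEPS. It kept the same order of OVA over OVA+Alum over PBS. Against the lowest signal measurable on the PBS array, it was at least 12.7-fold higher with AEPS, at least 5.54-fold higher with OVA and at least 2.34-fold higher with OVA+Alum.

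Ddx58 had another pattern, with a plain gap between the arrays with and without AEPS. Its signal was 5541 with PBS, 8226 with OVA, 8677 with OVA+Alum, 28417 with AEPS and 29820 with OVA+AEPS, at log2 levels of 4.05, 4.23, 4.37, 6.10 and 6.23. The 3 arrays without AEPS could not be told apart from their neighbours in this order beyond technical error, and neither could the 2 with it. Ddx58 was 4.16-fold higher with AEPS than with PBS (2.06 ± 0.20) and 3.98-fold higher with OVA+AEPS than with OVA (1.99 ± 0.20). Its dimmer probe gave differences of 2.45 and 1.75 in these comparisons, and stood 0.67 above PBS with OVA and 0.75 above PBS with OVA+Alum, where the brighter probe stood 0.19 and 0.32 above it.

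Dhx58, the helicase without signalling domains, followed nearly the same profile as Ddx58. Its signal was 922 with PBS, 1247 with OVA+Alum, 1622 with OVA, 5250 with AEPS and 5481 with OVA+AEPS, at log2 levels of 1.46, 1.57, 1.89, 3.67 and 3.78. PBS, OVA+Alum and OVA again could not be told apart from their neighbours, and both AEPS arrays lay well above them. The difference was 2.21 ± 0.20 (4.62-fold) for AEPS against PBS and 1.89 ± 0.20 (3.72-fold) for OVA+AEPS against OVA.

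Eif2ak2 combined a wide gap to the AEPS arrays with an intermediate level with OVA. Its signal was 194 with PBS, 248 with OVA+Alum, 620 with OVA, 2691 with OVA+AEPS and 3112 with AEPS, at log2 levels of −0.79, −0.76, 0.50, 2.76 and 2.91. The PBS and OVA+Alum arrays, which share column 4 of the slide, were level with each other, OVA stood 1.27 above them at its nearest, and the AEPS arrays stood at least 2.25 above OVA. Eif2ak2 was higher with AEPS than with PBS by 3.71 ± 0.20, 4.77-fold higher with OVA+AEPS than with OVA (2.25 ± 0.20) and 2.46-fold higher with OVA than with PBS (1.30 ± 0.20).

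Zbp1, the Z-nucleic acid sensor, was also highest on both AEPS arrays. Its signal was 6897 with PBS, 12445 with OVA+Alum, 15882 with OVA, 49386 with OVA+AEPS and 50186 with AEPS, at log2 levels of 4.36, 4.89, 5.18, 6.96 and 6.92. OVA and OVA+Alum could not be told apart, and OVA+Alum stood above PBS by 0.53 ± 0.20, which is more than the technical error and under 2-fold. The difference was 2.56 ± 0.20 (5.91-fold) for AEPS against PBS and 1.77 ± 0.20 (3.42-fold) for OVA+AEPS against OVA.

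The probe on the other Zbp1 transcript had signals of 959 with PBS, 1459 with OVA, 2244 with OVA+Alum, 6181 with AEPS and 6994 with OVA+AEPS. Both probes thus placed the AEPS arrays at the top and PBS at the bottom. They disagreed on OVA+Alum against OVA, which was 0.68 ± 0.20 by this probe and −0.30 ± 0.20 by the brighter one, so no order of these 2 injections can be given for Zbp1.

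Mavs, the adaptor downstream of MDA5 and RIG-I, did not follow its sensors. Its signal was 1452 with PBS, 1554 with OVA+Alum, 1210 with OVA, 1086 with AEPS and 1045 with OVA+AEPS, at log2 levels of 2.11, 1.89, 1.47, 1.39 and 1.39. The OVA, AEPS and OVA+AEPS arrays could not be told apart, and the column 4 arrays stood above them by at least 0.42. No Mavs difference reached 2-fold: AEPS against PBS was −0.72 ± 0.20 and OVA+AEPS against OVA was −0.08 ± 0.20. With the arrays scaled to spike-in probes, which moved the median of all genes in AEPS against PBS from −0.17 to 0.49, Mavs stood at −0.06 for AEPS against PBS and at 0.08 for OVA+AEPS against OVA. The range of Mavs over the arrays, 0.72, was close to the median of all genes.

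**Figure D1:**
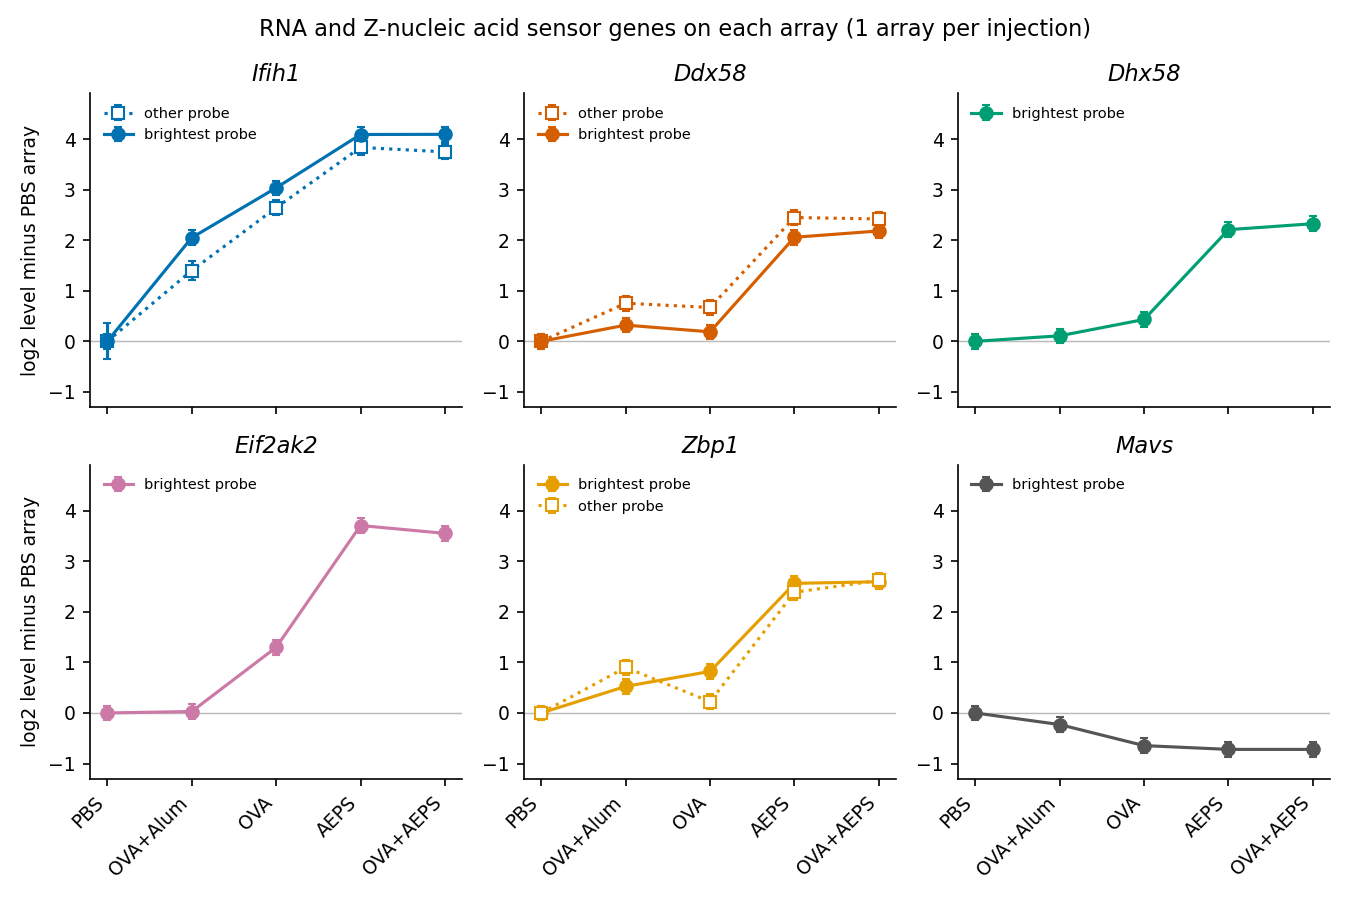
The log2 level of each probe of the 6 genes minus its level on the PBS array (vertical axis) is plotted for each injection (horizontal axis), with filled circles for the brightest probe, open squares for the other probe and bars of 1 technical SE. Both arrays with AEPS stand highest for every gene except Mavs, and Ifih1 alone also stands more than 2-fold above PBS with OVA+Alum.

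For AEPS against PBS, 5 of the 6 genes lay at least 2-fold up and none was lower, where 8.7% of 14936 genes were higher and 6.89% lower. These shares were 22.0% and 2.03% with spike-in scaling. The median over the 6 genes was 2.39, against −0.17 over all genes. By size of the difference among all genes, Ifih1 ranked at 68 and Eif2ak2 at 86 from the highest, and Zbp1, Dhx58 and Ddx58 at 248, 325 and 377. The comparison of OVA+AEPS with OVA involves neither the PBS array nor any array of column 4. Its arrays lay in columns 3 and 2, so column and injection cannot be told apart in it either. The same 5 were higher and none was lower, with 4.08% of 14904 genes higher and 3.64% lower (5.41% and 2.72% with spike-in scaling). Eif2ak2 ranked at 156 there, and Ifih1, at 1.06 ± 0.20 (2.08-fold), ranked at 558 and lay just inside the threshold. Neutrophil markers, of which 10 of 15 were higher for AEPS against PBS, had a median of 0.08 in this comparison, with 1 higher and 2 lower. Of 11 small peritoneal macrophage and dendritic cell markers, none was higher and 3 were lower here. The median was −0.35 for 10 T and NK cell markers (1 lower) and 0.66 for 6 mesothelial markers (1 higher). One more was lower among 7 inflammatory monocyte markers and 1 among 12 large peritoneal macrophage markers, with none higher in either list. The part of cell composition in this comparison was not tested.

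Single AEPS and single OVA injections were set side by side too, and gave 5 genes higher with AEPS (background 4.25% higher and 3.24% lower), with differences from 1.06 for Ifih1 to 2.41 for Eif2ak2. These values and those of OVA+AEPS against OVA share the OVA array. Between OVA+AEPS and AEPS no member differed by 2-fold (background 2.06% higher and 1.88% lower). The 6 differences there lay between −0.15 for Eif2ak2 and 0.12 for Ddx58 and Dhx58, each with a technical SE of 0.20.

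With OVA alone, Ifih1 and Eif2ak2 were the 2 members above PBS by 2-fold or more, against a background of 6.67% higher and 4.08% lower. Dhx58 stood at 0.43 ± 0.20. Zbp1 stood at 0.82 by its brighter probe and 0.22 by the other, and Ddx58 at 0.19 and 0.67, so no order of these 2 genes can be given here. With OVA+Alum only Ifih1 was higher than with PBS (background 6.46% higher and 5.15% lower). By the probes that stand for them, the other 4 sensors lay between 0.03 for Eif2ak2 and 0.53 for Zbp1. The other probes gave more, 0.90 ± 0.20 for Zbp1, close to 2-fold, and 0.75 for Ddx58. OVA+AEPS against PBS gave 5 genes higher (background 8.3% higher and 6.18% lower), with the same PBS array on the other side of each comparison. Since no other array shared its row, the row and the injection cannot be told apart in these values.

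The 2 adjuvants combined with the same antigen were far apart for the sensors. Between OVA+AEPS and OVA+Alum 5 genes were higher with the polysaccharide and none with alum, where the background was 6.76% higher and 6.44% lower. The differences were 3.52 ± 0.20 for Eif2ak2 (11.5-fold), 2.22 for Dhx58, 2.07 for Zbp1, 2.04 for Ifih1, 1.86 for Ddx58 and −0.49 for Mavs. Added to OVA, alum went with no higher sensor: against OVA alone, Eif2ak2 was lower with OVA+Alum (−1.27 ± 0.20) and no other member reached 2-fold, against a background of 4.15% higher and 5.44% lower. Ifih1, at −0.99 ± 0.20, lay just outside the threshold by its brighter probe and beyond it by the other (−1.24 ± 0.24). Mavs stood at 0.42. The OVA+Alum array lay in column 4 and the OVA and OVA+AEPS arrays did not, so position and injection cannot be told apart in either comparison.

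**Figure D2:**
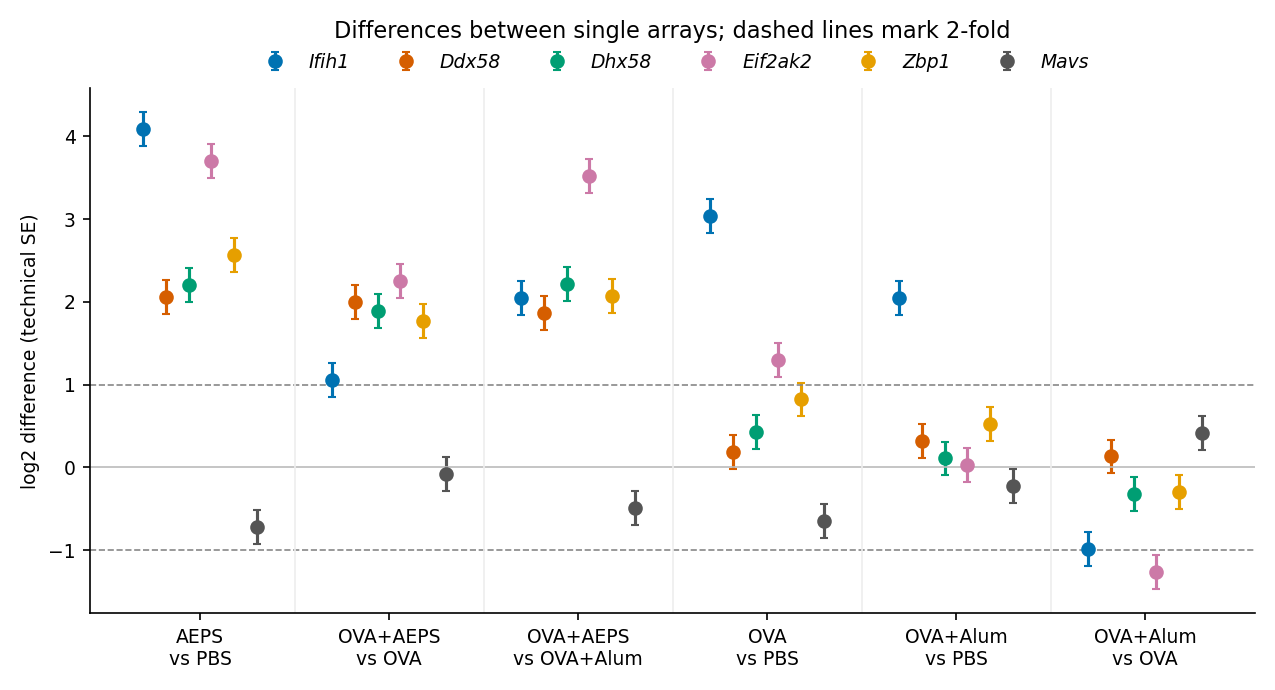
The log2 difference of each gene (vertical axis, bars of 1 technical SE) is plotted for 6 comparisons of single arrays, with dashed lines at 2-fold. In the 3 comparisons of an AEPS array with one without it, 5 genes lie above the upper line and Mavs lies between the lines, and in OVA+Alum against OVA only Eif2ak2 lies beyond the lower line.

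A gap between the arrays with and without AEPS was measured for each gene as the lower of the 2 AEPS levels minus the highest of the other 3. It was at least 2-fold for 5 of the 6 genes, against 1.09% of the 15570 genes well above background on at least 1 array, and no member showed the opposite gap (0.572% of genes). The gap was 2.25 for Eif2ak2, at rank 23 among all genes, 1.78 for Dhx58, 1.74 for Zbp1 and 1.74 for Ddx58, at ranks 50 to 52, and 1.06 for Ifih1, at rank 156. Mavs, at −0.72, showed none. The part of Ifih1 in this count rested on its closeness to 2-fold: with the median of each array as the scale its gap was 0.95.

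**Figure D3:**
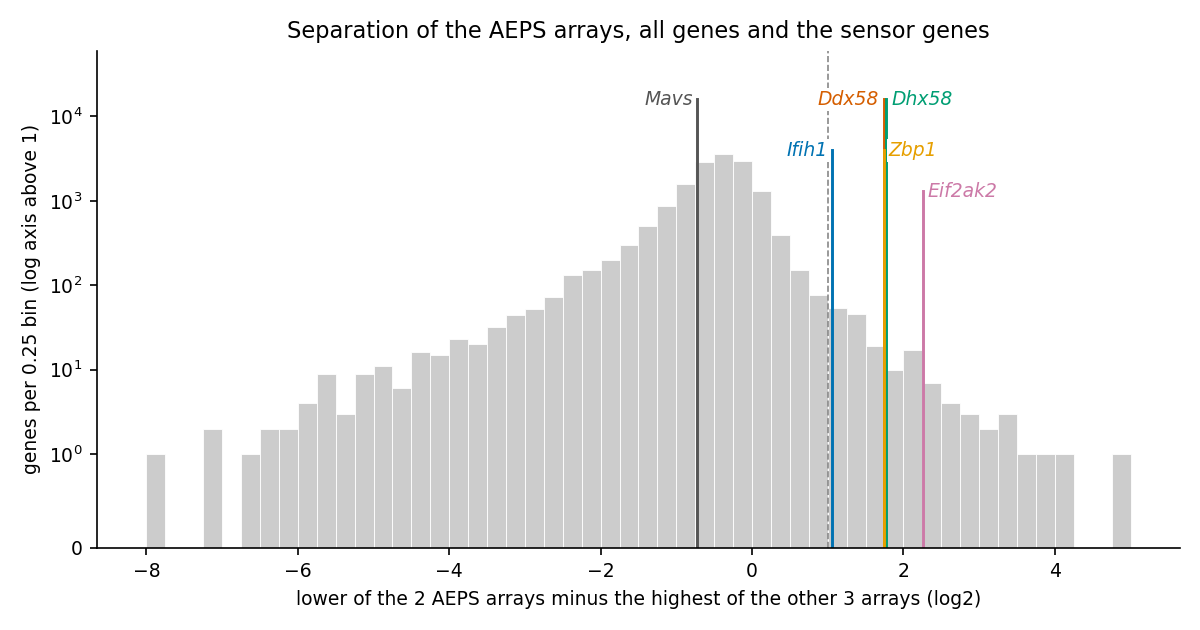
Grey bars count genes (vertical axis, logarithmic above 1) by the lower of the 2 AEPS levels minus the highest of the other 3 levels (horizontal axis, log2), and coloured lines mark the 6 genes, with a dashed line at 2-fold. Mavs lies at −0.72 within the bulk of genes and the other 5 lie between 1.06 and 2.25, in the thin right tail.

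In 2 further patterns, slide position and injection cannot be told apart. The PBS and OVA+Alum arrays of column 4 were both at least 2-fold lower than each of the other 3 arrays for Eif2ak2 (gap 1.27), as for 1.05% of genes, and Ifih1 lay just outside at 0.99. The opposite was seen for no member and for 0.0963% of genes. The PBS array alone was at least 2-fold lower than each other array for Ifih1 (gap 2.05), as for 1.52% of genes. The AEPS, OVA and OVA+AEPS arrays lay in columns 1, 2 and 3. Within them the 5 sensors stood 1.06 to 2.25 higher with OVA+AEPS than with OVA. As each lay in its own column, column and injection cannot be told apart there either.

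The polysaccharide's difference was set against PBS without antigen and against OVA with it. It was 4.09 without and 1.06 with OVA for Ifih1, 3.71 and 2.25 for Eif2ak2, 2.56 and 1.77 for Zbp1, 2.21 and 1.89 for Dhx58, and 2.06 and 1.99 for Ddx58. The second minus the first was −3.03 ± 0.29 for Ifih1, −1.45 ± 0.29 for Eif2ak2, −0.79 ± 0.29 for Zbp1, −0.31 ± 0.29 for Dhx58 and −0.06 ± 0.29 for Ddx58, where the error is technical. The values of Ifih1, Eif2ak2 and Zbp1 exceeded the limit used to tell levels apart, and the difference between OVA and PBS enters them by construction. The call depended on the probe for 2 genes. By its other probe Zbp1 gave 0.01 ± 0.29, within the limit, and Ddx58 gave −0.70 ± 0.29, past it. The other Ifih1 probe, below background with PBS, gave −2.73 ± 0.44. For Mavs the second minus the first was 0.64 ± 0.29, also past the limit but with a positive sign. With 1 array in each of the 4 arms these values were not tested over mice, and the PBS array, alone in its row, enters only the first difference.

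Likeness of profiles was measured as the root mean square difference of levels over the 5 arrays, each gene centred on its own mean. Among the members, Dhx58 lay closest to Zbp1 (0.15) and to Ddx58 (0.16), and Ddx58 lay at 0.22 from Zbp1. Ifih1 lay between 0.73 and 0.93 from the other sensors and Eif2ak2 between 0.61 and 0.79. By their brighter probes, 3 sensors thus had close profiles and those 2 each had their own. The dimmer probes did not enter these distances. The 2 Zbp1 probes disagreed on OVA+Alum against OVA (−0.30 by the brighter and 0.68 by the other). The closeness of Zbp1 was measured for its brighter probe only. Mavs was farthest, up to 1.89 from a sensor.

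The genes with the nearest profiles were sought among 13678 genes well above background on all arrays. For Ifih1 these were Oasl1, an oligoadenylate synthetase-like gene (0.25), Lrrc4 (0.25) and the cytokine gene Il15 (0.27). For Ddx58 they were Daxx, which encodes a nuclear histone chaperone (0.093), Parp12 (0.12) and the chemokine gene Ccl3 (0.15), and for Dhx58 the transcription factor gene Batf2 (0.094), Tnp2 (0.10) and Daxx again (0.13). Eif2ak2 lay near Ifi209 (0.17), Ifi214 (0.25) and the GTPase gene Tgtp2 (0.32), of which the first 2 belong to the interferon-inducible Ifi200 family. The nearest genes to Zbp1 were Tnfsf10, which encodes the death ligand TRAIL (0.11), Zup1 (0.13) and the exonuclease gene Isg20 (0.13). Mavs, which varied little, had very close neighbours in Tbccd1 (0.017), Ube4b (0.028) and Acap3 (0.035). Most of these distances were smaller than 0.20, the technical SE of a difference, so the order of the neighbours is not told apart. Lrrc4, Zup1 and Tnp2 were dim, at log2 levels of −4.40, −4.06 and −3.04 with PBS. These are descriptions of 5 arrays.

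The genes known to act with the sensors had list medians near that of all genes, and a median does not show the ends of a list. The counts here and in the lists that follow stand beside the shares over all genes. These shares were 8.7% higher and 6.89% lower for AEPS against PBS. For OVA+AEPS against OVA they were 4.08% and 3.64%. Of 10 cofactors of RIG-I-like receptors, 2 were at least 2-fold higher and 1 lower for AEPS against PBS, with a list median of −0.30. Trim25, the ubiquitin ligase that activates RIG-I, stood at 1.45 ± 0.20 and Zc3hav1, the antiviral zinc finger protein ZAP, at 1.13 ± 0.20, while Prkra, which encodes the PKR activator PACT, stood at −1.04 ± 0.21. For OVA+AEPS against OVA, Trim25 (1.05) and Zc3hav1 (1.01) were again higher and none of the 10 was lower. Signals of Trim25 were 12420 with PBS, 22240 with OVA+Alum, 23180 with OVA, 41775 with AEPS and 43694 with OVA+AEPS, so its AEPS arrays were highest but its gap, 0.93, was under 2-fold.

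In the chain below MAVS, 4 of 16 genes were higher and 1 lower for AEPS against PBS (median 0.22), and 1 was higher and none lower for OVA+AEPS against OVA (median 0.03). That 1 gene was Irf7, the interferon-inducible transcription factor of the chain, at 1.97 ± 0.20 and 1.48 ± 0.20, and it was the only one of the 16 with a 2-fold gap to the AEPS arrays. Irf3, the constitutive factor, stood at −0.27 and 0.00. The kinase gene Tbk1 stood at 1.29 and 0.32, and its relative Ikbke at 0.42 and 0.24. Tbkbp1, an adaptor of TBK1, was lower at −1.43 ± 0.20 and stood at −0.98 with OVA, while Traf2, a signalling adaptor, stood at 0.14 and 0.00.

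Of 16 brakes on these receptors, 4 were higher and none lower for AEPS against PBS, with a median of −0.14, and 1 was higher for OVA+AEPS against OVA. Tnfaip3, which encodes the ubiquitin-editing enzyme A20, was higher in both, at 2.41 and 1.26. Its partner Tax1bp1 was higher against PBS at 2.18 and stood at 0.35 with OVA. Nlrx1, a mitochondrial protein reported to restrain MAVS, stood at −0.32 and −0.64, and was higher with OVA+Alum than with OVA (1.08 ± 0.20).

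Among 8 partners of ZBP1 and cell death genes, 1 was higher for AEPS against PBS and 2 for OVA+AEPS against OVA, with medians of 0.27 and 0.25 and none lower. Adar, which encodes an RNA-editing enzyme whose longer form also binds Z-RNA and restrains ZBP1, stood just short of 2-fold at 0.98 ± 0.20 and just past it at 1.02 ± 0.20. Mlkl, the executioner of necroptosis, stood at 0.71 and 1.17, and was lower with OVA+Alum than with OVA (−1.12 ± 0.20). Ripk3, the kinase between them, stood at −0.52 and −0.17, and Ripk1 at 0.15 and 0.02. Cflar, an inhibitor of caspase-8, stood at 1.63 and 0.49 and was low on both column 4 arrays, with a gap of 1.32.

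PKR is one of the kinases of eIF2 alpha, and its relatives did not share its profile. Eif2ak1 and Eif2ak4, the haem-regulated kinase and the amino acid sensor GCN2, stood at −0.22 and −0.12 for AEPS against PBS and at −0.03 and 0.35 for OVA+AEPS against OVA. Eif2ak3, the endoplasmic reticulum kinase PERK, was lower at −1.17 ± 0.20 and stood at −0.66 with OVA. Of 14 genes in the list of eIF2 kinases and stress response, none was higher and 3 were lower for AEPS against PBS, and 1 was higher and 1 lower for OVA+AEPS against OVA. Atf4, the main translational target of eIF2 alpha phosphorylation, stood at 0.01 and 0.09 at the level of mRNA, and Chac1, a target gene of that response, was lower in both, at −1.18 ± 0.21 and −1.14 ± 0.21.

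Of 15 other DExD/H-box helicases measured, 2 were higher and none lower for AEPS against PBS, Dhx36 (1.13) and Ddx3x (1.09), and none differed by 2-fold between OVA+AEPS and OVA, where these stood at −0.17 and −0.11. Both were low on the column 4 arrays, with gaps of 0.89 and 0.92. None of the 15 had a 2-fold gap between the arrays with and without AEPS.

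The list of type I interferon genes, their receptor and its signalling chain had 10 genes above background for AEPS against PBS, of which 4 were higher and none lower. Stat2 stood at 1.88 ± 0.20 there and at 1.32 ± 0.20 for OVA+AEPS against OVA, and Irf9, a DNA-binding factor of this chain, at 1.35 and 0.66. Stat2 had a 2-fold gap to the AEPS arrays. Ifnb1 was well above background on 3 of the 5 arrays, with signals of 31.2 with AEPS, 44.8 with OVA and 47.1 with OVA+AEPS. On the column 4 arrays, where it was not, its signals were 8.77 with PBS and 5.49 with OVA+Alum, a gap of 1.53. Ifnb1 was among the 4 genes higher for AEPS against PBS (1.53 ± 0.43) and was also higher for OVA against PBS (1.97). Both differences rest on a PBS value not well above background. OVA+AEPS against OVA was 0.21 ± 0.24 for it, which could not be told apart from 0. Among 14 housekeeping genes, 1 was higher and 1 lower for AEPS against PBS and none differed for OVA+AEPS against OVA, with Actb at −0.04 and 0.16.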

How the data were processed

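Scanner output as deposited gives intensity on a linear scale, which the authors made with Agilent Feature Extraction 10.7.1.1, per the file headers. It had subtracted background and detrended the signal within each array, and no step between arrays had been applied. The deposited flags per spot, such as well above background, are other values of 0 or 1. The deposited series table holds log2 values of the authors. Its correlation with the log2 of the processed signal was 0.9998 or higher on each array, and it served as an alternative. No table column was without a sample (0).

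Of 62976 spots per array, 3671 controls and 134 to 219 outlier spots were left out, and none (0) was saturated. The log2 processed signal was taken minus each array's 75th percentile over spots, and spots of a probe were averaged. A probe was named only where its RefSeq transcript was in the GRCm38.p6 annotation, which gave 26582 of 55681 probes 1 gene symbol and left 29099 unnamed. Of several probes, the one with the highest mean signal represented its gene. A gene entered a comparison if well above background on at least 1 of the 2 arrays. Calls were set at 2-fold, and levels closer than 1.96 technical SE were not told apart. A fold against an array below background used the lowest signal well above background there and is given as "at least". The array count limits precision, and no spread between mice could be estimated.

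The text names all 6 members, the 3 nearest profiles of each, and genes of 8 pathway lists by the size of their range, together with a few fixed members of the kinase, cell death and interferon lists. Ifnb1 and Ifna4 fall outside that rule and were named after their values were seen. Members and lists were chosen with earlier results of these data known. Sums over 10 marker lists describe cell composition. Alternatives were the median of each array, quantile normalization, normexp (offset 50) with quantile normalization by limma 3.58.1, scaling to 8 spike-in probes, the deposited table, no filter on dim probes, a filter on both arrays and the median over the probes of a gene. A 75th percentile over probes was added after seeing the data. Python 3.11.15, numpy 2.4.6, pandas 2.3.3, matplotlib 3.10.9 and R 4.3.3 were used. The gene-wide step was tested on simulated data. A gene of the interferon receptor chain list is not reported here by name.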

Additional observations from a re-analysis of the deposited data

How the results depend on the processing

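The 528 values of the members under the alternatives kept their sign wherever a difference had reached 2-fold, and 480 of them moved by less than their technical error. Of the 48 that moved more, 39 came from scaling to spike-in probes. The values that did not move include 54 under no filter on dim probes and 54 under the filter on both arrays. Those settings choose which genes are tested and cannot move a member's value. The median over probes likewise cannot move a gene with 1 probe. The count of members past 2-fold in OVA+Alum against OVA rose from 1 to 2, both lower, with quantile normalization, normexp with quantile normalization, spike-in scaling, the deposited table, the median over probes and the added percentile over probes, because Ifih1 then passed the threshold (as far as −1.11). Ifih1 fell short of 2-fold with the median of each array in OVA+AEPS against OVA (0.95) and in AEPS against OVA (0.98), and after normexp in the latter (0.99). Each count was then 4 in place of 5. Zbp1 passed 2-fold for OVA against PBS with spike-in scaling (1.11). The counts of the other 5 comparisons of members were the same under each alternative. The background split moved with the scaling. With spike-in probes it was 10.6% of genes higher and 2.19% lower for OVA against PBS, 16.3% and 2.51% for OVA+AEPS against PBS, 10.3% and 2.96% for OVA+Alum against PBS, 9.17% and 4.59% for OVA+AEPS against OVA+Alum, 8.003% and 2.03% for AEPS against OVA, and 1.69% and 2.55% for OVA+AEPS against AEPS. The median of each array gave 8.26% and 2.98% for OVA against PBS and 8.07% and 3.85% for OVA+Alum against PBS. Normexp with quantile normalization gave 5.26% and 2.28% for AEPS against PBS, 3.44% and 0.818% for OVA, 5.03% and 2.25% for OVA+AEPS and 3.40% and 1.74% for OVA+Alum against PBS, 0.936% and 2.40% for OVA+Alum against OVA, 1.75% and 1.44% for OVA+AEPS against OVA, 3.41% and 2.95% for OVA+AEPS against OVA+Alum, 2.03% and 1.105% for AEPS against OVA, and 0.551% and 0.701% for OVA+AEPS against AEPS. No paired analysis was possible because each injection had 1 array, and for the same reason none could be left out. Signal over background limits the dim Ifih1 probe, for which the PBS array gives only a bound.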
